A study of Mus musculus with 6 samples.

Results

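The comparison described here is that of mouse Th9 cells cultured for 3 days with interleukin-1b (IL-1b) against Th9 cells cultured for 3 days without it, 2 of the 6 libraries of the study, with 1 library per group. Spleens and nodes of 7 weeks old wild-type C57/Bl6j mice gave the naive CD4 T cells, which were placed on CD3/CD28-coated plates. Both cultures held 20 ng/ml IL-4, 2 ng/ml TGFb and an antibody blocking IFNgamma; the second also held 10 ng/ml IL-1b. RNA of both was poly(A)-purified and sequenced on a MiSeq. The other libraries are used below only for context: a pair taken after 1 h in the same media, made from rRNA-depleted RNA, and a poly(A) pair of CD45.2 cells that, after their 3 days of culture, spent 1 week in CD45.1 mice and were then sorted. The labels do not say how many mice or cultures went into a library. A gene was compared when its value was at least 5 FPKM (fragments mapped to a transcript, scaled by its length and by the size of the library) in at least 1 of the 2 libraries, which kept 7962 of 23091 gene symbols.

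Th9 cells are helper T cells that arise when IL-4 and TGFb act together on an activated CD4 T cell, and they are known for secreting IL-9, a cytokine that acts on mast cells, epithelium and other lymphocytes. IL-1 binds a receptor formed by IL1R1 and IL1RAP, and the adaptor MyD88 with IRAK kinases and TRAF6 then carries the signal to NF-kB and to MAP kinases, which feed AP-1 factors. NF-kB is a family of dimers of REL proteins held in the cytoplasm by inhibitors such as IkB-alpha until the pathway is engaged.

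Because there was 1 library per group, no difference below has a replicate check, and none carries a p-value. A gene was called when its FPKM + 1 differed by at least 2-fold between the libraries and the deposited intervals of both values did not overlap. These intervals are the authors'; their level, the sequencing depth and the number of fragments behind a value were not stated in the labels or headers. Their median half-width was 23.4% of the FPKM without IL-1b and 24.8% with it. Each log2 ratio below is that of FPKM + 1, with IL-1b over without, so folds of genes with low values are understated. For the genes described in most detail the ratio is also given after a trend with transcript length, described further down, was subtracted. The markers of T cells were present in both libraries: all 14 of 14 were compared, none was called, and Cd3e stood at 327 FPKM without and 360 FPKM with IL-1b, Cd4 at 231 and 189 FPKM.

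At day 3, 103 genes were higher with IL-1b, 1.29% of those compared, and 171 were lower, 2.15%. With the length trend removed, 91 of 7833 genes were higher, 1.16%, and 79 were lower, 1.01%. Of the 103 and 171 genes, 60 and 76 were called both ways. Among genes above 0 FPKM in both libraries, 37 were higher and 64 lower both ways, and these carry the description that follows. Most of the transcriptome lay close to the diagonal: 76.9% of compared genes differed by less than 1.5-fold, and the median log2 ratio was -0.05. In bulk RNA of this kind, fewer cells expressing a gene and less of its RNA per cell cannot be told apart.

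**Figure D1:**
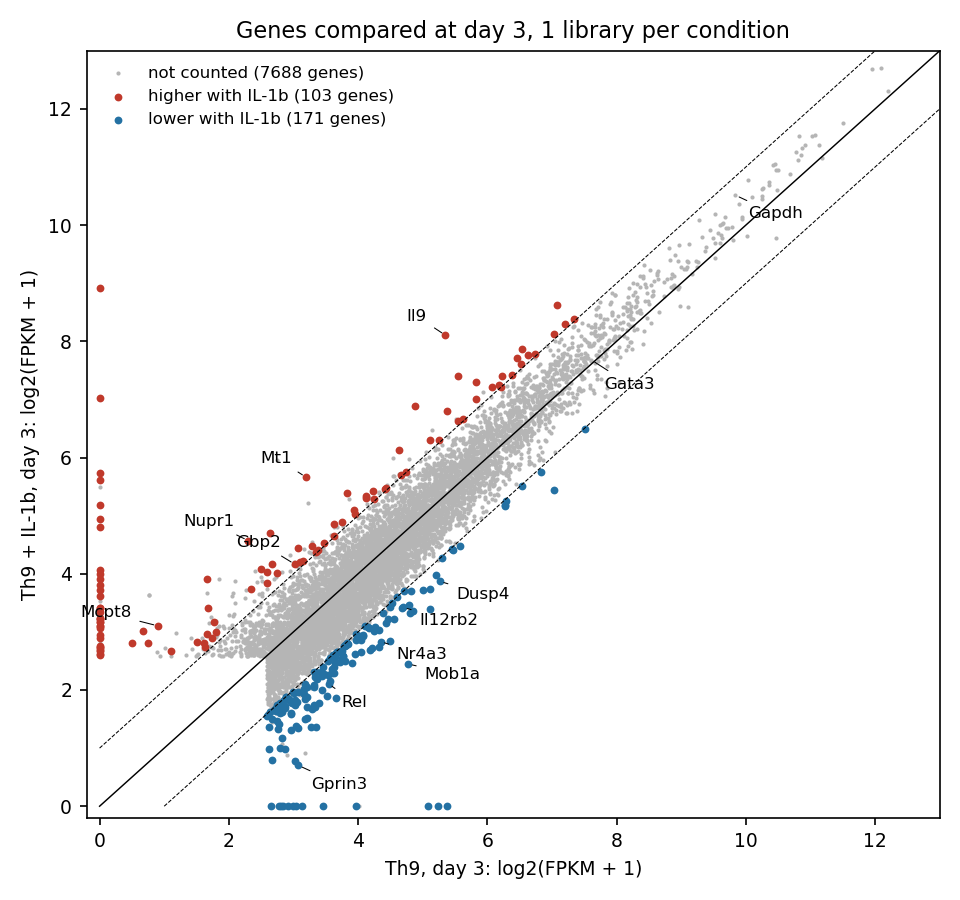
Log2(FPKM + 1) with IL-1b (vertical axis) against that without it (horizontal axis) in the 2 day 3 libraries, with 1 point per compared gene, dashed lines at 2-fold, red points for the 103 genes called higher and blue points for the 171 called lower. Il9, Mt1, Nupr1, Mcpt8 and Gbp2 lie above the diagonal, Rel, Nr4a3, Dusp4 and Il12rb2 below it, and Gata3 near it.

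Unnamed gene models, with symbols such as those in Gm or Rik, were left out of the rankings of ratios below. Il9, the cytokine gene that names the cell type, had the highest ratio of the named genes above 0 in both libraries that were called both ways. It was at 39.8 FPKM without IL-1b (interval 16.5 to 48.4) and 274 FPKM with it (interval 149 to 227), so it was higher with IL-1b and the intervals did not overlap. The log2 ratio was 2.76, or 6.75-fold, and 2.18, or 4.54-fold, with the length trend removed. The value with IL-1b lies above its own upper bound, a property of 295 entries in that library and 237 in the other, so its precision is less certain than the interval shows. Il9 lies at chr13:56580638-56583607 in the mm9 build of the files.

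Promoter sequence is shown for 4 genes that had higher values with IL-1b and whose regulation is classically tied to AP-1, NF-kB or metal-responsive elements: Il9, the chemokine gene Cxcl3 and the neighbouring metallothionein genes Mt1 and Mt2. Each line holds the 250 bases before the gene's start on its own strand, from RefSeq on GRCm38.p6, and capitals mark 1 motif per gene, sought on both strands and chosen with the results known. For Il9 the capitals mark the AP-1 site TGANTCA, for Cxcl3 the NF-kB site written GGG, any 2 bases, TTTCC, and for Mt1 and Mt2 the metal response element core TGCNCNC. The positions are chr13:56482258-56482507 on the minus strand for Il9, and on the plus strand chr5:90785851-90786100 for Cxcl3, chr8:94178839-94179088 for Mt1 and chr8:94172368-94172617 for Mt2.
Il9: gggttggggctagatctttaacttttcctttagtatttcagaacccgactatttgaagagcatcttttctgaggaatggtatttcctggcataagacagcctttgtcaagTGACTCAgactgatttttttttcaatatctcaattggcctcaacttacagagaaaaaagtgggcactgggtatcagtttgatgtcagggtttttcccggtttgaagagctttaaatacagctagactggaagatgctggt
Cxcl3: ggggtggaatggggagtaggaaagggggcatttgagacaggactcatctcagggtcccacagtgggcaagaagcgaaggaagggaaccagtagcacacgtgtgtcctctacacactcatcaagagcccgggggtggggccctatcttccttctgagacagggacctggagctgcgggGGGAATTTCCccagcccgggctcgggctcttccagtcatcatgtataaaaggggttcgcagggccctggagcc
Mt1: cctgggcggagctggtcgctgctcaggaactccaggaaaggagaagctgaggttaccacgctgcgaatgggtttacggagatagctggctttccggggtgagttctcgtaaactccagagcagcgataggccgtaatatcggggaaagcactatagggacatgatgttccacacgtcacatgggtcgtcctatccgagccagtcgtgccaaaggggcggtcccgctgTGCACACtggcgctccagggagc
Mt2: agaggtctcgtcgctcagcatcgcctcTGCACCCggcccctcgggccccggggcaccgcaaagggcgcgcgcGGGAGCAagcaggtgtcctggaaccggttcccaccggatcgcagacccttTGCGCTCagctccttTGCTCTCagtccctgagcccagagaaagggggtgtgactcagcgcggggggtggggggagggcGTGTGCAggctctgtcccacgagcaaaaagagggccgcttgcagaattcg
The AP-1 letters occurred in 6.75% of 32851 RefSeq promoters of this length, the NF-kB letters in 1.41% and the metal response element core in 44.4%. The Il9 window also holds 1 match to the NF-kB letters and 1 to the metal response core, the Cxcl3 window holds 2 matches to that core, and the Mt2 window holds 5 of them and 1 AP-1 match. A match describes these letters only; no factor was measured here.

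Among 26 cytokine genes of helper T cells, 19 were compared, and Il9 was the one called. The median log2 ratio of the 19 was 0.43, and 0.09 with the length trend removed, against -0.05 and -0.02 over all compared genes. Csf2, encoding GM-CSF, was at 7.98 FPKM without and 20.4 FPKM with IL-1b, a log2 ratio of 1.25 that became 0.79 with the trend removed. Il22 was at 4.99 and 12.3 FPKM (1.15, then 0.79), and Il2, the T cell growth factor, at 6.72 and 15.5 FPKM (1.10, then 0.75). All 3 were above 2-fold, but the intervals overlapped, so none was called. The type 2 cytokines Il13 and Il5 were at 74.8 and 9.95 FPKM without IL-1b and at 138 and 19.1 FPKM with it, below 2-fold. Il4, which drives the type 2 and Th9 programmes, was at 21.2 and 23.0 FPKM. Ifng, the Th1 cytokine, was at 44.0 and 78.3 FPKM, and Il10, an inhibitory cytokine, at 7.51 and 13.7 FPKM. Il21 stayed under 5 FPKM in both libraries, at 2.12 and 3.59 FPKM, and was not compared.

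Of the metal binding and oxidative stress genes, Mt1 was among the 15 highest. Mt1, which encodes a small protein that binds zinc and copper, was at 8.14 FPKM without IL-1b (2.04 to 13.2) and 49.7 FPKM with it (22.4 to 59.3). It was higher with IL-1b, with a log2 ratio of 2.47, or 2.08 with the length trend removed. Mt2, its neighbour, was at 4.69 and 13.6 FPKM, a log2 ratio of 1.36 that became 0.82, and its intervals overlapped. Hmox1, the heme-degrading oxygenase, was at 10.0 and 22.0 FPKM; it was called at 1.06 but not at 0.82 with the trend removed. Of the 22 genes of this list 17 were compared, with a median of 0.25 and, with the trend removed, 0.24. Prdx1, a peroxide scavenger, was at 135 and 199 FPKM, and Txnrd1, which reduces thioredoxin, at 39.3 and 34.7 FPKM.

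Nupr1, a small chromatin-associated stress protein induced through ATF4, was at 3.92 FPKM without IL-1b (0.881 to 7.05) and 22.8 FPKM with it (9.69 to 30.0). Its log2 ratio was 2.27, and 2.22 with the length trend removed. It was the one gene called among 21 compared of 22 genes of ATF4 and endoplasmic reticulum stress, whose median was 0.04 and then 0.01. Atf4 itself was at 280 and 384 FPKM, and its target Asns, asparagine synthetase, at 104 and 148 FPKM. Of the 21 genes, 11 had a ratio above 0 and 10 below. The latter include the amino acid transporter genes Slc7a5, at 128 and 91.3 FPKM, and Slc7a1, at 24.4 and 17.2 FPKM.

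Chemokine genes had the highest median of the lists with more than 10 compared genes. That median includes Cxcl3 and Ccl5, which reached 5 FPKM only with IL-1b and so had high ratios by construction. Cxcl3, a ligand of CXCR2 that attracts neutrophils, was at 0.681 FPKM without IL-1b (0 to 1.63) and 5.97 FPKM with it (2.39 to 8.98). It was higher with IL-1b, with a log2 ratio of 2.05, or 2.14 with the trend removed, and the values are close to the 5 FPKM minimum. When the length of the principal transcript (1016 bases) took the place of the longest (3498 bases), Cxcl3 fell under that minimum. Of 24 chemokine and chemokine receptor genes 11 were compared, with a median of 0.93. Over the 10 of them compared after the trend was removed, it was 0.79 before and 0.38 after. Over the 9 that reached 5 FPKM in both libraries it was 0.65, and 0.37 with the trend removed. Ccl3 and Ccl4, inflammatory chemokines that attract leukocytes, were at 5.64 and 8.46 FPKM without IL-1b and at 14.4 and 19.8 FPKM with it. Their intervals overlapped and neither was called. Xcl1 (11.1 and 22.1 FPKM) and Ccl17 (17.7 and 34.8 FPKM) stayed below 2-fold on the FPKM + 1 scale.

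Mcpt8, a serine protease gene of basophils, was at 0.868 FPKM without IL-1b (0 to 1.97) and 7.59 FPKM with it (2.89 to 12.3), a log2 ratio of 2.20 and, with the trend removed, 1.82. It was the one gene of the 15 markers of mast cells and basophils that reached 5 FPKM. The summed level of these markers was 9.38 FPKM without and 18.1 FPKM with IL-1b, with 6 and 7 of them listed at 0. Cpa3, the mast cell carboxypeptidase, was at 1.32 and 2.90 FPKM, Fcer1a, the IgE receptor alpha chain, at 0 and 0.734 FPKM, and Ms4a2, its beta chain, at 0.684 and 0 FPKM. The part of these cells in the Mcpt8 difference was not tested. Pf4, the platelet chemokine, was at 4.30 and 15.6 FPKM with overlapping intervals, and the other erythroid and platelet markers stayed under 5 FPKM.

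Gbp2, an interferon-inducible GTPase, was at 7.11 FPKM without IL-1b (4.5 to 9.66) and 16.9 FPKM with it (12.3 to 21.5). It was higher with IL-1b, with log2 ratios of 1.15 and 1.10. It was the one called gene among 22 compared of 41 interferon response genes, whose median was 0.12 and then 0.10. Irf7, the regulator of type I interferon genes, was at 1.67 and 6.45 FPKM with overlapping intervals.

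The other genes described from the 15 highest have no common list here. Maff, a small MAF transcription factor, was at 2.42 and 7.96 FPKM, a log2 ratio of 1.39, and 1.25 with the trend removed. Dnajb13, an axonemal co-chaperone, was at 0.587 and 7.07 FPKM, and Frmd7 at 2.48 and 6.95 FPKM. Anapc13, a subunit of the anaphase-promoting complex, was at 45.6 and 169 FPKM, Actr6, an actin-related chromatin protein, at 2.21 and 9.68 FPKM, and Ppp2r3c, a phosphatase regulatory subunit, at 5.71 and 15.1 FPKM. Bola2, an iron-sulfur cluster protein, was at 134 and 393 FPKM, and Snhg1, a host gene of small nucleolar RNAs, at 55.6 and 157 FPKM. The values of Anapc13, Bola2 and Snhg1 with IL-1b lie above their own upper bounds, as do those of Bola2 and Snhg1 without it. Rpl26, a ribosomal protein gene with many processed copies in the genome, was at 28.4 and 118 FPKM but is listed at 0 in both in vivo libraries, so its value is uncertain.

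**Figure D2:**
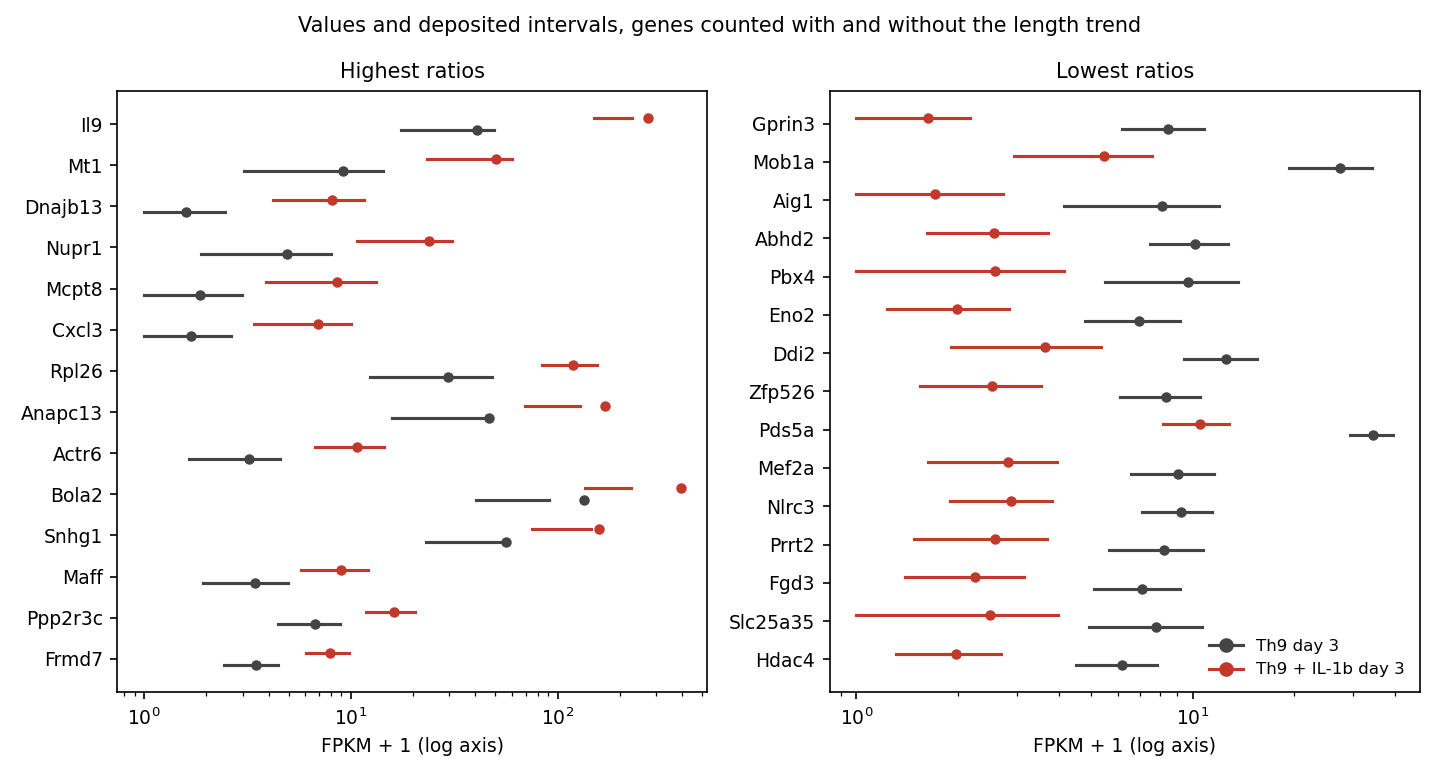
FPKM + 1 on a log axis for the highest (left, all but 1 of 15) and the 15 lowest (right) ratios among named genes above 0 in both libraries that were called both ways. Dark points are the day 3 library without IL-1b, red points the one with it, and lines the deposited intervals. The lines of a gene do not overlap. The points of Il9, Anapc13, Bola2 and Snhg1 with IL-1b lie beyond their own lines, as do those of Bola2 and Snhg1 without it.

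Of 20 genes of IL-1 and IL-18 receptors and adaptors 10 were compared and none was called. Over all compared genes 1.29% were higher and 2.15% lower, so no call among 10 genes is close to that share. The median of the list was -0.16, and -0.09 with the trend removed. Il1r1, the signalling receptor, was at 0.243 FPKM without and 0.668 FPKM with IL-1b, and Il1r2, the decoy receptor, at 1.45 and 4.51 FPKM; neither reached 5 FPKM. Myd88 was at 22.7 and 28.5 FPKM, Irak1 at 30.7 and 27.9 FPKM, and Traf6 at 18.6 and 13 FPKM.

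Of 20 genes of NF-kB subunits and inhibitors 19 were compared and 1 was called. Rel, which encodes c-Rel, the subunit most tied to lymphocyte activation, was at 10.7 FPKM without IL-1b (7.47 to 13.7) and 3.31 FPKM with it (1.64 to 4.93). It was lower with IL-1b, at -1.44, and at -1.08 with the length trend removed. The inhibitor genes that NF-kB is known to induce differed by less than 1.5-fold: Nfkbia, encoding IkB-alpha, at 124 and 155 FPKM, Tnfaip3, encoding A20, at 16.4 and 17.9 FPKM, and Nfkbiz at 5.81 and 6.55 FPKM. Nfkb1 was at 85.1 and 56.5 FPKM and Rela at 45.6 and 41.6 FPKM.

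Il12rb2, the signalling chain of the IL-12 receptor that marks Th1 competence, was at 24.9 FPKM without IL-1b (19.8 to 30.0) and 9.71 FPKM with it (6.79 to 12.6). It was lower with IL-1b, at -1.28, and at -1.24 with the trend removed. Il6st, the gp130 chain shared by receptors of the IL-6 family, was at 11.0 and 3.93 FPKM; it was called at -1.29 but not at -0.90. The other 20 compared of the 24 cytokine receptor genes were not called, and the list's median was -0.29 and then -0.11. Il2rb, the IL-2 receptor beta chain, was at 261 and 156 FPKM.

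Nr4a3, a nuclear receptor gene induced by T cell receptor signals, was at 19.4 FPKM without IL-1b (13.8 to 24.9) and 6.12 FPKM with it (3.54 to 9.01). It was lower with IL-1b, at -1.52 and -1.18. Dusp4, a phosphatase that switches off MAP kinases, was at 37.5 FPKM (29.8 to 43.9) and 13.6 FPKM (9.49 to 17.5), lower at -1.40 both ways. The other 22 compared of 28 early activation genes were not called, and the list's median was 0.01 and then -0.03. Nr4a1, of the same family as Nr4a3, was at 87.9 and 90.3 FPKM, and Egr1 at 28.5 and 25.3 FPKM. Tnfrsf8, encoding CD30, was at 15.3 and 6.62 FPKM, called at -1.10 and, at -1.02 with overlapping intervals, not called with the trend removed. It was the one called gene of 18 compared among 23 costimulatory and inhibitory receptors, with a list median of 0.25 and then 0.08.

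Among the 15 lowest named genes, Gprin3 was lowest, at 7.43 FPKM without and 0.627 FPKM with IL-1b. Its log2 ratio was -2.37, and -2.17 with the trend removed. Mob1a, an adaptor of the Hippo kinases, was at 26.4 and 4.45 FPKM (-2.33, then -2.13), and Aig1 at 7.13 and 0.710 FPKM (-2.25, then -2.15). Pds5a, a regulator of cohesin, was at 33.4 and 9.53 FPKM (-1.71, then -1.27). Mef2a, a transcription factor, was at 8.07 and 1.82 FPKM, and Hdac4, a deacetylase that binds MEF2 proteins, at 5.17 and 0.973 FPKM. Nlrc3, a negative regulator of innate and T cell signalling, was at 8.26 and 1.88 FPKM, and Eno2, the neuronal enolase, at 5.91 and 0.998 FPKM. The others were Abhd2, Pbx4, Ddi2, Zfp526, Prrt2, Fgd3 and Slc25a35, with log2 ratios from -1.99 (Abhd2) to -1.65 (Slc25a35).

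Of 34 genes of Th9 transcription factors and signals 26 were compared and none was called, with a median of -0.19 and then -0.03. Since 1.29% of all compared genes were higher and 2.15% lower, no call among 26 genes is close to that share. Irf4 was at 118 and 94.7 FPKM, Batf at 122 and 170 FPKM, Gata3 at 194 and 204 FPKM and Stat6, which carries the IL-4 signal, at 47.9 and 30.1 FPKM. Sfpi1, the files' symbol for the gene of PU.1, was at 0.488 and 0 FPKM, too low to compare. Foxp3, the regulatory T cell factor, was at 7.55 and 7.61 FPKM. The T cell factors Tcf7 and Lef1 were at 167 and 115 FPKM without IL-1b and at 111 and 60.8 FPKM with it, short of 2-fold.

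The ratio between the 2 libraries fell with transcript length, and 43 higher and 95 lower calls were lost when this trend was removed, while 31 higher and 3 lower calls were gained. Over 7896 genes with a length in the GENCODE M21 annotation, Spearman's rho across genes was -0.54, a description of these 2 libraries, since genes are not replicates and share both. In the shortest of 5 equal bins the genes had a median log2 ratio of 0.35 (183 to 1829 bases), and in the longest of -0.42 (4836 to 123179 bases). The shortest bin held 54 higher and 7 lower calls, the longest 4 higher and 102 lower. With the trend removed these became 16 and 7, and 23 and 29. The GC content of the transcripts was less related, at -0.10.

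The trend goes with the library with IL-1b. Set against the mean of the 4 poly(A) libraries, this library's median deviation went from 0.31 in the shortest bin to -0.29 in the longest, while that of the Th9 day 3 library went from -0.03 to 0.13 and those of the in vivo libraries rose as well, from -0.10 to 0.10 without and from -0.16 to 0.08 with IL-1b. The deviations of the 4 libraries offset each other by construction. Over pairs, rho was -0.33 for day 3 against in vivo with IL-1b, -0.03 for the same without IL-1b, and -0.01 for IL-1b in vivo. With 1 library per group, a property of this library and an effect of IL-1b on long transcripts cannot be told apart.

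**Figure D3:**
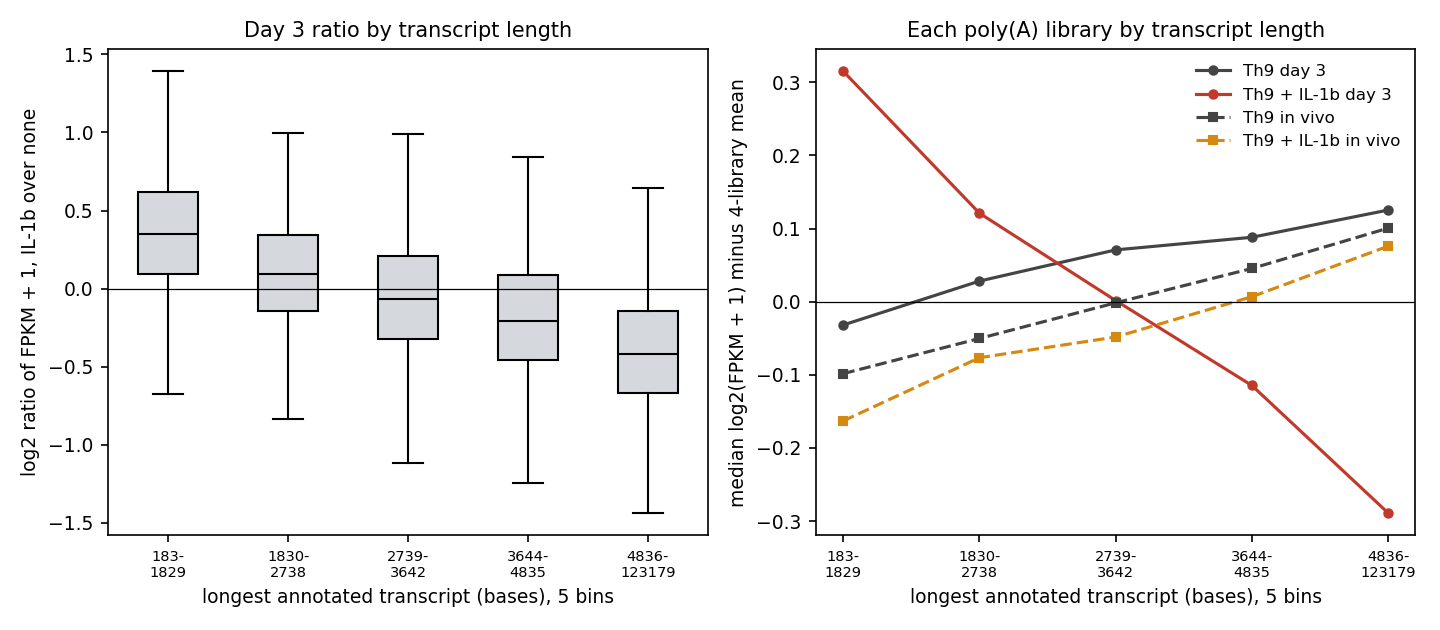
Left, log2 ratio at day 3 by bin of transcript length in bases (line, median; box, quartiles; whiskers, the most extreme genes within 1.5 box lengths); right, median deviation of log2(FPKM + 1) in each of 4 poly(A) libraries from their mean, by the same 5 bins. The median ratio falls from 0.35 to -0.42, and the Th9+IL-1b day 3 library is the one whose deviation falls, from 0.31 to -0.29.

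Groups of short or long transcripts followed the trend. Of 77 compared ribosomal protein genes 71 had a ratio above 0, with a median of 0.48 that became 0.11 once the trend was removed; Rpl26 and Rpl9 were called, and Rpl9 was at 0 and 5.78 FPKM. Of 74 compared genes of the respiratory chain and ATP synthase 70 were above 0, with medians of 0.44 and 0.09. Ndufs6, a complex I subunit, was at 129 and 279 FPKM and called before the trend was removed only. Atp5g1 (64.6 and 114 FPKM) and Atp5l (26.7 and 62.0 FPKM), subunits of ATP synthase, were called after it was removed only, and Atp5l not when the principal transcript (544 bases) replaced the longest (6310 bases). Among 36 compared histone genes 33 were above 0, with a median of 0.44. Over the 31 compared after removal the median went from 0.40 to -0.02. Hist1h4d, at 14.7 and 0 FPKM, was called lower, and its deposited interval with IL-1b runs from 0 to 0. Of other H4 genes, Hist1h4f was at 0 and 10.5 FPKM, and Hist1h4c and Hist1h4j were both at 0.70 and 11.4 FPKM, none of them called. How reads were divided among H4 genes was not stated, so the Hist1h4d call is uncertain.

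At the other end, all 21 compared genes of chromatin regulators with long transcripts were below 0, with a median of -0.65; over the 20 compared after removal it went from -0.62 to -0.21. Crebbp (14.7 and 6.22 FPKM) and Trrap (12.3 and 5.38 FPKM), coregulators of transcription, were lower at -1.12 and -1.06. With the trend removed they stood at -0.68 and -0.63, and no gene of the list was called. Fasn, fatty acid synthase, was at 46.5 and 21.4 FPKM, -1.09 and then -0.62, the one call among 29 compared genes of cholesterol and fatty acid synthesis (medians -0.38 and -0.18). Cell cycle genes had medians of -0.23 and -0.13 over 37 compared, with Cdk6 (16.8 and 7.48 FPKM) called before removal only. The same holds for Pole (17.9 and 7.09 FPKM) and Fancd2 (9.22 and 3.97 FPKM) among 32 compared genes of DNA replication and repair, with medians of -0.15 and -0.11.

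The other lists gave few calls. Genes of Myc and ribosome biogenesis had medians of 0.26 and 0.23 over 21 compared; Bysl was listed at 0 without and at 15 FPKM with IL-1b, and Nop58, a nucleolar RNP protein at 58.2 and 97.3 FPKM, was called after removal only and not with its principal transcript. Heat shock genes had medians of 0.14 and 0.13 over 12, and Dnaja1, a co-chaperone at 5.46 and 10.1 FPKM, was called after removal only. No gene was called, before or after removal, among 21 compared genes of glycolysis (medians 0.04 and 0.14), 20 of TGFb signalling (-0.37 and -0.18), 19 of STAT and SOCS (-0.35 and -0.05), 16 of integrins and adhesion (-0.23 and -0.08) and 16 of naive and memory T cells (-0.17 and -0.01). The same was true of 10 regulatory T cell genes (0.02 and -0.11), 7 follicular helper genes (0.22 and 0.26), 3 genes of the Th17 axis (0.47 and 0.09) and 10 cytotoxic effectors (0.04 and -0.07). At the shares of all compared genes, 1.29% higher and 2.15% lower, a list of such a size holds few calls. A core list of 14 Th9 genes had 11 compared, with medians of 0.07 and 0.12 and Il9 called.

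Apart from Mcpt8 no marker of another cell type was called, though few of these markers reached 5 FPKM. Their summed levels without and with IL-1b were 34.1 and 28.8 FPKM for 11 B cell markers, 259 and 346 FPKM for 22 myeloid markers, 93.0 and 120 FPKM for 12 markers of NK and CD8 cells, and 34.5 and 27.8 FPKM for 10 of innate lymphoid cells. For 12 erythroid and platelet markers they were 12.1 and 23.8 FPKM. Il7r, the 1 innate lymphoid marker compared, made up 28.4 and 20.5 FPKM of the sum of its list. The 13 stromal and epithelial markers summed to 804 and 857 FPKM, of which Vim, a gene that activated T cells also express, made up 774 and 829 FPKM; Col1a1 was at 0.123 and 0.135 FPKM and Krt8 at 0 in both. Of the B cell markers Cd79a was at 3.44 and 3.77 FPKM; of the myeloid markers Cd14 was at 0 in both and Lyz2 at 0 and 4.25 FPKM. Cd8b1 was at 10.0 and 18.5 FPKM. The 3 compared transcripts without a poly(A) tail had a median of 0.10, with none called; Rpph1, the RNA of RNase P and the one of them with a length, had 0.10 and, with the trend removed, -0.54.

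**Figure D4:**
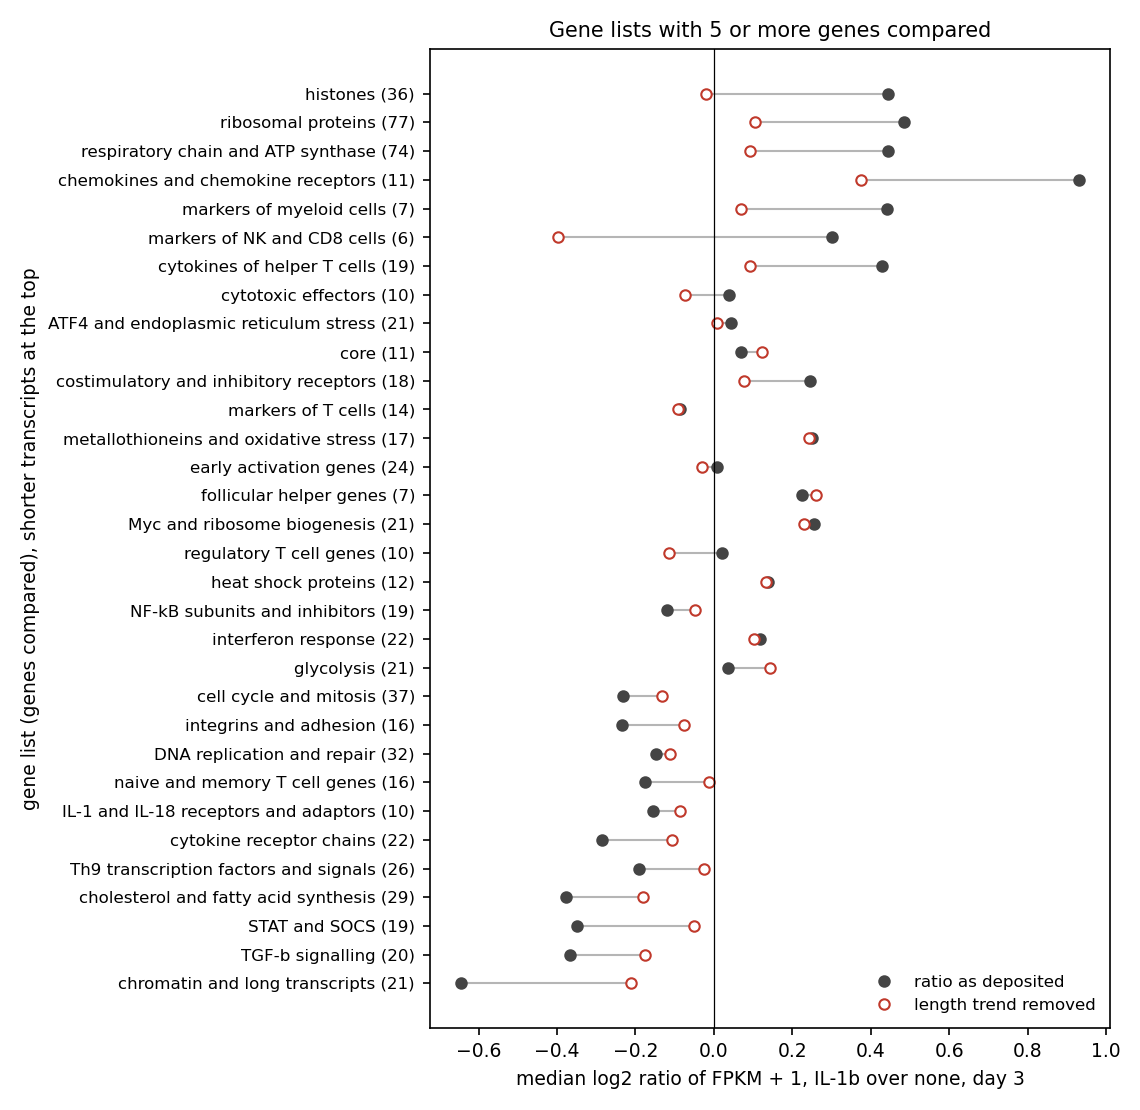
Median log2 ratio at day 3 of the compared members of each gene list, for lists with 5 or more of them; filled points show the ratio as deposited, open points that with the length trend removed, and the number compared as deposited stands beside each name; the open points of histones, chemokines, chromatin regulators, myeloid and NK and CD8 markers rest on fewer genes. Ribosomal protein genes move from 0.48 to 0.11 and chromatin regulators with long transcripts from -0.65 to -0.21, towards the -0.05 and -0.02 of all genes.

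Genes listed at 0 in 1 library form a group of their own: 33 of the 103 higher genes had no value above 0 without IL-1b, and 13 of the 171 lower genes had none with it. The locus of 37 of these 46 genes, 80.4%, overlaps another entry of the files, against 43 of 228 called genes above 0 in both libraries, 18.9%, and 16.4% of all compared genes. Tceb2, encoding elongin B, is listed at 0 FPKM without and 484 FPKM with IL-1b; it overlaps Srrm2, which was at 113 and 53.1 FPKM. Insl3 is listed at 0 and 129 FPKM and overlaps Jak3, and Surf1 at 0 and 48.1 FPKM and overlaps Surf2. Fdx1l and Exosc6 are listed at 0 without IL-1b and at 52.1 and 35.3 FPKM with it. Surf2, and Raver1-fdx1l, which overlaps Fdx1l, are themselves listed at 0 in both day 3 libraries. Of the 6 libraries of the study, Tceb2 is listed at 0 in 5, and Insl3 and Fdx1l in 4. In the other direction Mxd3 is listed at 40.5 and 0 FPKM, Rad9 at 36.7 and 0 FPKM, Degs2 at 10.0 and 0 FPKM, and Adat3 at 7.77 and 0 FPKM. The labels and headers do not say how reads of overlapping genes were divided, so these values are uncertain and no fold is given for them.

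The in vivo pair shares no library with the day 3 pair and gives other values of the same genes. Of the 37 genes higher both ways and above 0 at day 3, 30 were compared in vivo, where 5 were higher with IL-1b and 1 was lower; over all 8639 genes compared in vivo, 6.23% were higher and 3.48% lower. Of the 64 lower genes 56 were compared in vivo, with 0 higher and 3 lower. The 5 higher genes were Cxcl3, Gbp2, Mcpt8, Mt1 and 1 unnamed gene model, the 1 opposite gene was Dnajb13, and the 3 lower genes were Hmga1, which encodes a chromatin architectural protein, Prrt2 and Xrcc3, a DNA repair gene. Il9 did not differ in the same way there: it was at 59.5 FPKM without and 49.6 FPKM with IL-1b. Mt1 was at 40.4 and 118 FPKM in vivo, Nupr1, though not called there, at 23.0 and 50.4 FPKM, Cxcl3 at 0.890 and 16.8 FPKM and Gbp2 at 8.13 and 87.1 FPKM, each with the larger value in the library with IL-1b, as at day 3. Markers of other cells had larger values in that library too: the lung epithelial genes Sftpc, at 3512 and 10010.5 FPKM, and Scgb1a1, at 2736 and 5709.9 FPKM, the myeloid markers H2-Aa, at 83.9 and 152 FPKM, and Fcer1g, at 26.1 and 49.7 FPKM, and Pf4, at 11.7 and 44.0 FPKM. Their part in the in vivo differences was not tested. Mcpt8 was at 0 and 16.1 FPKM in vivo, where other markers of mast cells and basophils were also present, such as Hdc at 3.56 and 10.2 FPKM.

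Of the 56 genes lower at day 3 and compared in vivo, 25 had a ratio above 0 there and 31 below, with a median of -0.09. None of the 4 described in detail was called in vivo. Il12rb2 was at 31.7 FPKM without and 15.8 FPKM with IL-1b, and Dusp4 at 36.1 and 18.3 FPKM, with the smaller value again in the library with IL-1b. Rel was at 8.57 and 11.3 FPKM and Nr4a3 at 19.4 and 37.3 FPKM, with the larger value in the library with IL-1b. After 1 h of culture, where the libraries were rRNA-depleted and their levels cannot be set against the others, Il9, Nupr1, Cxcl3 and Mcpt8 were listed at 0 in both libraries. Nr4a3 was at 21 and 36.0 FPKM at 1 h and Rel at 5.28 and 6.41 FPKM.

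**Figure D5:**
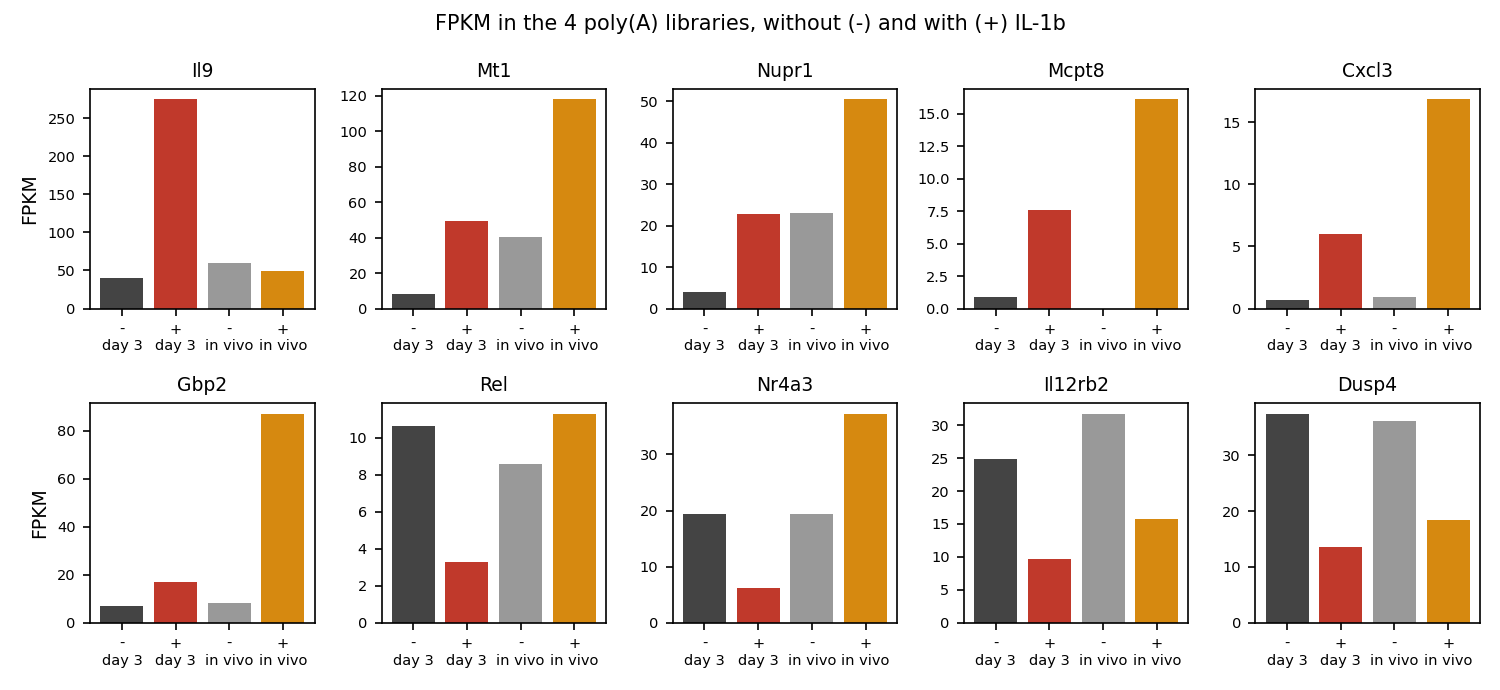
FPKM of 10 genes in the 4 poly(A) libraries, day 3 and in vivo, each without (-) and with (+) IL-1b; each bar is 1 library. The Il9 bar of 274 FPKM at day 3 with IL-1b stands above the other bars of its panel (39.8 to 59.5 FPKM), while Mt1, Nupr1, Mcpt8, Cxcl3 and Gbp2 are higher with IL-1b in both pairs.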

How the data were processed

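The 2 day 3 RNA-seq libraries were poly(A)-purified, and 4 other libraries were used for context. TopHat and the mm9 build are named in the submitters' processing notes; the version and the tool for the gene values were not stated. The files hold FPKM per gene, computed by the authors, each with the 2 ends of an interval, per the file headers. Depth is unknown, since the files used here give FPKM only.

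Of 23700 entries per file, 285 whose status was not OK were left out, and values and interval ends were added over entries of 1 symbol (190 of 23091 symbols had more than 1 entry). The ratio was taken on log2(FPKM + 1); a gene needed 5 FPKM in 1 library, a 2-fold ratio and non-overlapping intervals to be called. The length trend was a lowess curve (fraction 0.3) of the log2 ratio on the log10 length of the longest GENCODE M21 transcript of the symbol (lengths only, no coordinates; 99.2% of compared genes had one, 20732 of all symbols by name and 1904 by synonym). The curve was subtracted from the library with IL-1b and its bounds, and the rule was applied again. Python 3.11.15 with pandas 2.3.3, scipy 1.17.1 and statsmodels 0.14.6 was used, and the steps were tested on simulated data. With 1 library per group no test was possible.

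The comparison, the 39 gene lists and the rules were chosen with earlier results of these data known. The named genes are list members called either way, the 4 largest ratios of each list in either direction and a core list. They also hold the 15 highest and 15 lowest ratios, and the 5 largest values per direction among genes listed at 0 in 1 library. For these picks from all genes, unnamed gene models were left out. Other list members named, and the promoter motifs, were chosen after their values were seen. Alternatives covered the pseudocount, the minimum, the scaling, the length and GC trend, the fold, the interval rule and the handling of zeros. Some genes are not reported here.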

Additional observations from a re-analysis of the deposited data

Results flagged for a closer look

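For 6 named genes the call with IL-1b went one way at day 3 and the opposite way in vivo, in 1 library per group at each stage. The difference between the stages was not tested. Dnajb13 had a log2 ratio of 2.35 at day 3 (0.587 FPKM without and 7.07 FPKM with IL-1b) and -2.02 in vivo (6.11 and 0.758 FPKM). Lgals7, a galectin gene, had a log2 ratio of 1.49 at day 3 (23.8 and 68.8 FPKM) and -2.22 in vivo (40.0 and 7.80 FPKM), and with the length trend removed it was not called at day 3.

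The other 4 genes are listed at 0 in 1 library of each pair. Exosc6 had 5.18 at day 3 and -4.53 in vivo, and Oip5 had 4.06 and -4.62. Yipf2 had 3.73 and -3.43, and Rad9, which was lower at day 3, had -5.23 and 4.75. These log2 ratios rest on the added 1 FPKM and are no folds. All 4 overlap another entry: Exosc6 overlaps Aars, Oip5 overlaps Nusap1, Yipf2 overlaps Carm1 and an unnamed gene model, and Rad9 overlaps Ppp1ca. The part of the overlap in these values was not tested.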

How the results depend on the processing

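No paired analysis was possible because each group holds 1 library, and for the same reason no replicate could be left out. No named gene reversed under any alternative tried. Of the named genes, 24 lost their call with a pseudocount of 5 and 21 at 3-fold, while 34 gained one at 1.5-fold and 19 without the interval rule. With the length trend removed 11 lost and 4 gained a call, with GC as well 12 and 2, by the median transcript 5 and 1, and by the principal transcript 11 and 2. The 103 higher calls became 291 at 1.5-fold, 45 at 3-fold, 199 without the interval rule and 66 with length and GC trends removed. The 171 lower calls became 736 at 1.5-fold, 37 at 3-fold, 40 with a pseudocount of 5, 263 with no minimum or with 1 FPKM, and 92 with 10 FPKM. They became 79 with the length trend removed and 75 with GC as well. With the trend removed, the 91 higher calls became 269 at 1.5-fold, 33 at 3-fold and 54 with a pseudocount of 5. The 79 lower calls became 233, 21 and 24 under the same settings, 143 with no minimum or with 1 FPKM, 38 with 10 FPKM, and 141 when the median transcript length was used. Under that length the trend itself was -0.30, against -0.54. Added after seeing the data, leaving out genes listed at 0 together with the length trend gave 68 higher and 67 lower, and the principal transcript's length gave 76 lower. The cause of these shifts was not tested beyond what each setting does by construction. Other scalings, summing rules and widened intervals kept the counts within 1.5 times. Precision is limited by 1 library per group and an unknown depth.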
